A study of Schizosaccharomyces pombe with 16 samples.

Results

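The genes described here belong to the middle of fission yeast meiosis: mfr1 (SPBC1198.12), fzr3 (SPCC1620.04c), mde5 (SPAC25H1.09), ppk31 (SPBC725.06c) and spo6 (SPBC1778.04). These are 5 of the 7022 features in the deposited table. They were chosen from the measured RNA levels themselves, as genes that were higher in S2A and in S7A cells than in WT, and whose level in the S2A-S7A double mutant fell short of the sum of the 2 single changes. Values from those 3 strains against WT are therefore a description of how the genes were picked and carry no test of the 5 genes. All 5 passed the filter on low counts, and reads of these genes ranged from 3 in one WT library (mfr1) to 754 in one Y1F-S7A library (ppk31).

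The libraries held polyadenylated RNA, sequenced strand by strand, from Schizosaccharomyces pombe with substitutions in the tail of Rpb1, the largest subunit of RNA polymerase II. That tail, the CTD, is a run of heptad repeats, and each strain is named for the residue replaced in them: Y1F (tyrosine by phenylalanine), S2A and S7A (serine by alanine) and T4A (threonine by alanine). There were 8 strains with 2 biological replicates each: WT (rpb1CTD-WT 1-18), the 4 single mutants, and Y1F-S7A, S2A-S7A and T4A-S7A. All strains carried ade6, ura4-D18 and leu1-32 and were grown in YES, a rich medium, at 30 °C to an OD600 of 0.4 to 0.7. S2A was labelled h+ and the other strains h-, so a contrast of S2A with another strain carries the substitution and the mating type, which cannot be told apart. Meiosis was not induced in these cultures.

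Meiosis in this yeast runs on successive waves of transcription. Starvation and mating induce Ste11 and Mei2, and later the forkhead factor Mei4 switches on the middle genes, which bring cells through the meiotic divisions and into spore formation. Mei4 binds a motif called FLEX, built on the core GTAAACA. In growing cells the RNA-binding protein Mmi1 recognises repeats of UNAAAC in a set of meiotic transcripts and sends them to the nuclear exosome. Among the genes described here, Mfr1 is a meiosis-specific activator of the anaphase promoting complex and Fzr3 belongs to the same Fizzy-related family. Mde5 is an alpha-amylase homologue whose expression depends on Mei4. Spo6 is the regulatory subunit that activates the Spo4 kinase, a meiotic relative of the Hsk1-Dfp1 pair of the replication machinery. Ppk31 is a kinase of the Rim15 type.

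The sequence shown first is the FLEX core, since it is the known docking site of the factor of the middle wave. The 500 bases before each start codon were read from the RefSeq reference ASM294v3 and searched on both strands for GTAAACA and for the variant GTAAATA. The first form was found before 4 of the 5 genes and not before ppk31. It occurred before 23.4% of 5112 coding genes searched in the same way, and either form before 41.6%. With 2 or more copies of GTAAACA stood fzr3, mde5 and spo6, against 3.76% of coding genes. In the windows of 30 bases below, given 5′ to 3′ on the strand of the gene, capitals mark GTAAACA or its reverse complement. Distances are counted from the start codon to the first base of the match.
mfr1, 204 bases before, chrII:194463-194492, plus strand: tagcaaatgttTGTTTACtgcagtcattat
fzr3, 107 bases before, chrIII:2150997-2151026, minus strand: ttctatgtcttTGTTTACaagcgaaatgta
fzr3, 69 bases before, chrIII:2150959-2150988, minus strand: aatagtttagcGTAAACAccacaccaattg
mde5, 136 bases before, chrI:2538314-2538343, plus strand: atgaaatggttTGTTTACtttcttgagcgt
mde5, 82 bases before, chrI:2538368-2538397, plus strand: gtatttttgttTGTTTACaatgaagtaaac
mde5, 69 bases before, chrI:2538381-2538410, plus strand: tttacaatgaaGTAAACAaaaaaaaactac
spo6, 284 bases before, chrII:3102989-3103018, plus strand: ggcgaggctttTGTTTACaaacaatactag
spo6, 243 bases before, chrII:3103030-3103059, plus strand: aaaatatttgaGTAAACAaacaaaatcaaa

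Both copies before fzr3, and both before spo6, faced opposite ways. Before mde5 the copies at 82 and 69 bases faced opposite ways and lay closest together. The variant GTAAATA was matched once before fzr3 and once before spo6. The deposited feature of mde5 begins upstream of the reference gene and contains all 3 of its matches. The deposited ppk31 feature likewise reaches past the reference gene into the upstream bases searched. A match describes letters only, and binding was not measured.

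**Figure D1:**
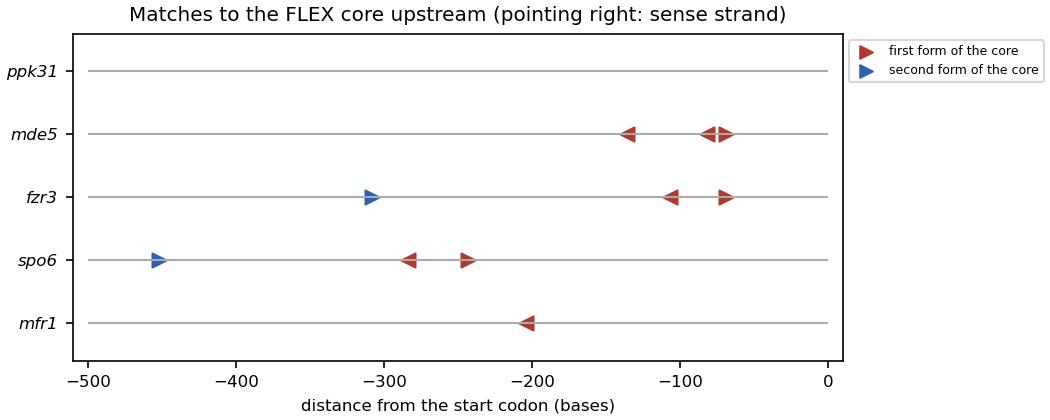
Position of each match to the FLEX core in the 500 bases before the start codon (horizontal axis, bases) of the 5 genes, with triangles pointing right for the sense strand and left for the antisense strand. The first form (red) is GTAAACA and the second (blue) GTAAATA; fzr3, mde5 and spo6 each hold 3 matches, mfr1 holds 1 and ppk31 none.

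The core of the Mmi1 recognition repeat, searched as TNAAAC on the sense strand of the reference genes, was present in 90.7% of coding genes, at a median of 1.65 matches per kilobase. In spo6 it was found 7 times, or 3.79 per kilobase, a density above that of 94.7% of coding genes. In ppk31 there were 9 matches (2.78 per kilobase, above 84% of genes). The other 3 were nearer the median or below it, with 1.88 in fzr3, 1.83 in mde5 and 0.762 in mfr1. A window of spo6, 464 bases into the gene at chrII:3103548-3103577 on the plus strand, shows 1 of these matches in capitals.
spo6: cccactgcttttTCAAACtactgtgtaaaa

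All 5 genes gave little polyadenylated RNA in every strain. On the per-length scale of the authors' RPKM values, WT means were 0.145 for mfr1, 0.329 for fzr3, 0.763 for mde5, 1.06 for ppk31 and 2.11 for spo6. These levels lay above no more than 5.54% of 5107 protein-coding features. The highest levels reached in any strain, 9.65 RPKM for spo6 in S7A and 8.77 RPKM for mde5 in S2A, still lay above only 12.9% and 11.2% of them. In these bulk libraries a low level in every cell and a high level in few cells cannot be told apart, nor can fewer cells of a type and less RNA per cell. Library totals ran from 18677921 to 31254978 reads. Levels below are CPM, reads scaled to library size, given as replicate 1 and replicate 2.

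The Rim15-type kinase gene ppk31 had the most reads of the 5. It stood at 3.98 and 4.21 CPM in WT, 2.45 and 3.03 in T4A, and 7.10 and 6.81 in T4A-S7A. It stood at 14.2 and 19.6 in Y1F, 19.6 and 21.1 in S7A, 24.0 and 24.6 in S2A, 24.0 and 28.2 in Y1F-S7A, and 21.5 and 29.3 in S2A-S7A. The 3 strains with low levels, WT, T4A and T4A-S7A, did not overlap each other or any other strain. Among the 5 strains above them, neighbours in the order overlapped, except that both S2A libraries lay above both S7A libraries.

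The alpha-amylase homologue gene mde5 had its highest level in S2A, at 15.9 and 16.7 CPM, against 1.92 and 1.03 in WT. S2A-S7A followed with 6.88 and 8.85, clear of S2A above it and of Y1F below it. Y1F had 5.70 and 4.73, S7A 4.15 and 4.75, Y1F-S7A 3.31 and 4.53, and T4A-S7A 2.60 and 4.01, each overlapping its neighbour. T4A was lowest at 1.23 and 0.718 and overlapped WT.

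The 2 activators of the anaphase promoting complex differed from each other. For fzr3 the order resembled that of mde5: 5.46 and 4.83 CPM in S2A, 3.88 and 3.26 in S2A-S7A, 2.35 and 2.11 in S7A, 1.84 and 1.99 in Y1F-S7A, and 1.5 and 1.74 in T4A-S7A. Y1F had 1.55 and 1.38, T4A 0.749 and 0.410, and WT 0.503 and 0.516. T4A overlapped WT and Y1F overlapped T4A-S7A, while the other neighbours lay apart.

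For mfr1 the highest strains were S7A, with 1.95 and 3.43 CPM, and T4A-S7A, with 1.91 and 3.11, which overlapped each other. S2A had 0.956 and 1.17, T4A 1.02 and 0.667, S2A-S7A 0.4997 and 0.791, Y1F-S7A 0.381 and 0.701, and Y1F 0.290 and 0.535. From S2A down to Y1F each strain overlapped the next. WT was lowest, at 0.229 and 0.129, and did not overlap Y1F. Its 2 WT libraries held 8 mfr1 reads in all, so every ratio of mfr1 to WT rests on that count.

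The kinase activator gene spo6 was highest in S7A, at 13.6 and 19.4 CPM, clear of Y1F-S7A at 7.88 and 9.81. S2A had 6.82 and 7.36, S2A-S7A 4.65 and 7.61, Y1F 4.88 and 6.82, and WT 4.48 and 2.45. T4A had 1.46 and 2.62, and T4A-S7A, the lowest, 1.1 and 0.898. S2A-S7A overlapped S2A and Y1F, and WT overlapped T4A, while T4A-S7A lay below every other library. Its order thus ran opposite to that of mfr1 at T4A-S7A, where mfr1 was near its highest level.

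**Figure D2:**
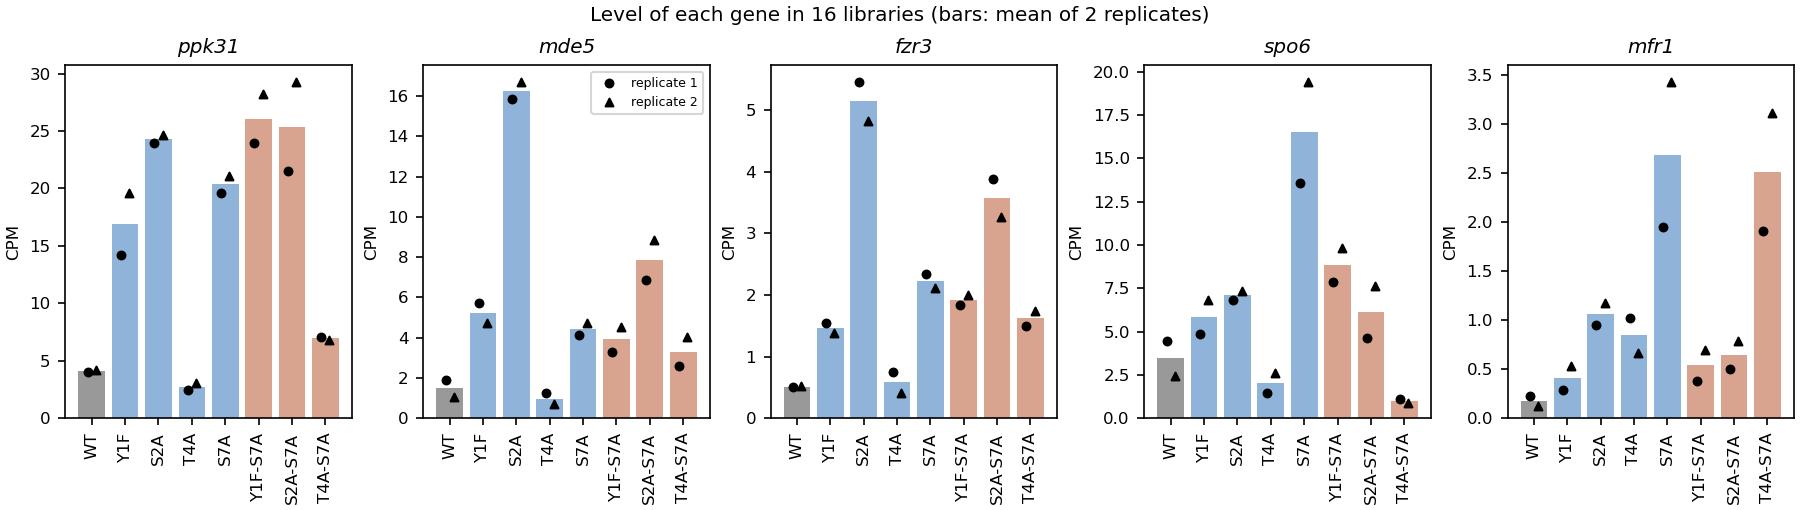
Level of each gene in CPM (vertical axis, a separate scale per gene) in the 8 strains, with bars for the mean of 2 replicates and symbols for each library; grey is WT, blue the single mutants and red the double mutants with S7A. ppk31 reached 21.1 CPM in S7A and no more than 7.10 in T4A-S7A, mde5 and fzr3 peaked in S2A, and spo6 and mfr1 peaked in S7A.

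Across the 8 strain means of log2 CPM (prior count 2), the genes fell into a closer and a looser group, given as a description since the choice of genes shaped these profiles. fzr3 and mde5 had a Pearson correlation of 0.96, fzr3 and ppk31 0.876, and mde5 and ppk31 0.871. spo6 was nearest to ppk31 (0.753), and mfr1 ranged from 0.408 with fzr3 to -0.02 with spo6. Outside the 5, the features most like their mean profile among 5926 candidates were the noncoding RNA SPNCRNA.747 (0.966), mam2 (0.953), pgc1 (0.953), mde2 (0.948), SPBC800.14c (0.942) and spn6 (0.94). Mam2 is the pheromone receptor of M cells, Mde2 acts in meiotic recombination, and Spn6 is a septin of the forespore membrane. For spn6 the strain means were 1.06 CPM in WT, 10.02 in S2A, 7.93 in S7A and 11.9 in S2A-S7A, and for pgc1, a gene read far more often, they were 50.3, 69.5, 69.7 and 66.6.

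How far the double mutant fell short differed between the genes. Both libraries of S2A, S7A and S2A-S7A lay above both WT libraries for every one of the 5. The choice of genes required this in substance for S2A and S7A. It did not require it for S2A-S7A, but the WT libraries also entered the choice and lie low for these genes. Nothing is therefore read from the S2A-S7A libraries lying above WT. For spo6 the lower S2A-S7A library (4.65 CPM) lay close to the higher WT library (4.48). The log2 changes against WT in S2A were 3.46 for mde5, 3.32 for fzr3, 2.57 for ppk31, 2.54 for mfr1 and 1.03 for spo6. In S7A they were 3.87 for mfr1, 2.31 for ppk31, 2.25 for spo6, 2.12 for fzr3 and 1.59 for mde5. The smallest of these values were thus spo6 in S2A and mde5 in S7A.

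The S2A-S7A cells showed 3 arrangements. mfr1 was lower in the double mutant than in either single mutant in every library, with a log2 change against WT of 1.81 ± 0.64 (SE) where the single changes summed to 6.42. That left it 24.3-fold under the product of the single changes. fzr3 and mde5 lay between the S2A and S7A levels, at 2.8 ± 0.34 and 2.41 ± 0.37 against sums of 5.44 and 5.05, a gap of 6.25-fold for fzr3. ppk31 and spo6 overlapped S2A, at 2.63 ± 0.22 and 0.82 ± 0.38 against sums of 4.88 and 3.28, with ppk31 4.76-fold under the product.

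Because S2A is h+ and S2A-S7A is h-, the change from S7A to S2A-S7A, both h-, gives the S2A step without a difference in mating type. On the log2 scale it was -2.06 for mfr1, -1.43 for spo6, 0.32 for ppk31, 0.68 for fzr3 and 0.82 for mde5. So 3 genes had higher means and 2 lower means after S2A was added to S7A. The corresponding S7A step, from S2A to S2A-S7A, was -1.05 for mde5, -0.73 for mfr1, -0.52 for fzr3, -0.21 for spo6 and 0.06 for ppk31. Both steps use only libraries that entered the choice of genes. That choice favoured high single mutants and a double mutant that fell short, so the steps are a description and carry no test.

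**Figure D3:**
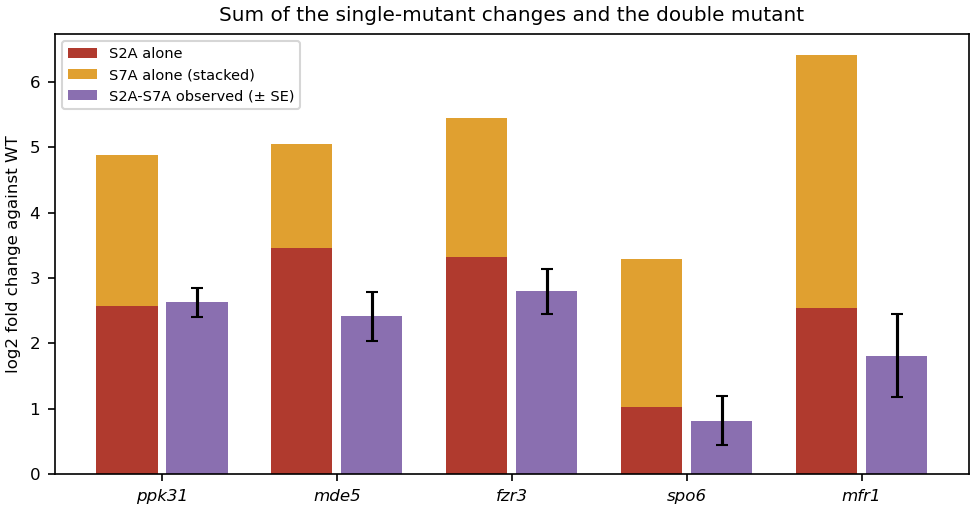
Log2 fold change against WT (vertical axis) of each gene, with the S2A and S7A changes stacked and the S2A-S7A change beside them, error bars ± SE of the edgeR fit, n = 2 libraries per strain. The purple bar is shorter than the stack for all 5 genes, 1.81 against 6.42 for mfr1, as the choice of these genes required.

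Mating type was checked with its markers, with features called by edgeR's quasi-likelihood test at an adjusted p under 0.05 over all 6420 tested features. In S2A, 1 of 3 P-cell markers rose, map4 (log2 change 0.85 ± 0.18, adjusted p = 0.0102), and 1 of 7 M-cell markers fell, the M-factor gene mfm2 (-4.61 ± 0.47, adjusted p = 9.15e-05). The map4 call did not survive the fits that left out WT replicate 1 or S2A replicate 2 (adjusted p up to 0.103). Of all tested features, 7.17% were called higher in S2A, and 15.4% with the replicate number as a block. With the replicate block mam2 (adjusted p = 0.0231) and mam1 (0.00642) were called as well. Their log2 changes in the unblocked fit were 1.03 ± 0.32 and -0.54 ± 0.25. The summed P-cell markers ran from 99.8 to 103 CPM in S2A, 82.3 to 94.3 in S2A-S7A and 63.6 to 75.3 in WT. The summed M-cell markers ran from 140.2 to 146.4 CPM in S2A, 123.4 to 141.5 in S2A-S7A and 157.6 to 174 in WT. Of the other h- strains, T4A had 142.1 to 143.8 and T4A-S7A 125.4 to 142, as low as S2A. Y1F had 144.6 to 190.3, S7A 175.1 to 210.6 and Y1F-S7A 169 to 199. None of the 10 markers had 0 reads in any strain. The part of mating type in the S2A levels of the 5 genes was not tested.

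Whether S7A raised these genes where it was not used to choose them was asked in Y1F and T4A cells. In T4A cells, 4 genes had higher means and 1 a lower mean once S7A was added. Only ppk31 rose past the threshold, 2.55-fold (log2 change 1.35 ± 0.23, adjusted p = 0.0398), where 0.187% of tested features were called. The values for mde5 (1.72 ± 0.38, adjusted p = 0.12) and fzr3 (1.43 ± 0.34, adjusted p = 0.155) missed it. With the replicate number as a block, where 2.51% of features were called, mde5 passed (adjusted p = 0.0325) and ppk31 kept its call (0.0014). mfr1 was at 1.53 ± 0.49 (adjusted p = 0.341). spo6 stood at -0.999 ± 0.42 (adjusted p = 0.547), a 0.5-fold level. Leaving out any 1 of the 4 libraries took the ppk31 call away, with adjusted p between 0.106 and 0.31.

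In Y1F cells none of the 5 was called after S7A was added, where 0.0156% of tested features, a single one, were called and 370 had an unadjusted p under 0.05. With the replicate block 1.36% were called, and DESeq2 called 64 features, and neither called any of the 5. ppk31 was at 0.62 ± 0.21 (adjusted p = 0.535), from 14.2 and 19.6 to 24.0 and 28.2 CPM. spo6 was at 0.59 ± 0.37, fzr3 at 0.39 ± 0.31 and mfr1 at 0.33 ± 0.58. mde5 was at -0.42 ± 0.34, with both Y1F-S7A libraries below both Y1F libraries.

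Taken as a mean over both backgrounds, the S7A step raised ppk31 by 0.99 ± 0.15 on the log2 scale (adjusted p = 0.0161), where 0.857% of features were called. In each background both libraries with S7A lay above both without it. Leaving out 1 of the 8 libraries moved its adjusted p to between 0.0229 and 0.071, and it was no longer called without Y1F replicate 1, T4A replicate 1, Y1F-S7A replicate 2 or T4A-S7A replicate 2. fzr3 was at 0.91 ± 0.23 (adjusted p = 0.122). With the replicate block, where 5.97% were called, fzr3 passed (adjusted p = 0.042) and ppk31 kept its call (0.00053). mfr1 was at 0.93 ± 0.38, mde5 at 0.65 ± 0.25 and spo6 at -0.20 ± 0.28, none of them called.

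The S7A step in Y1F minus that in T4A was then tested for every feature. It was -2.14 ± 0.51 for mde5 (adjusted p = 0.622) and 1.59 ± 0.56 for spo6 (adjusted p = 1), and none of the 5 passed. That was in edgeR, where no feature was called (0%), although 185 had an unadjusted p under 0.05. DESeq2 called 14, mde5 among them. Set beside the S7A step in WT, which the choice of genes used and which these differences share, the S7A step in Y1F differed by -3.54 for mfr1, -2.01 for mde5, -1.73 for fzr3, -1.69 for ppk31 and -1.66 for spo6. In T4A the difference from WT was -3.25 for spo6, -2.34 for mfr1, -0.96 for ppk31, -0.69 for fzr3 and 0.13 for mde5. For mde5 the S7A step was thus 1.59 ± 0.37 in WT and 1.72 ± 0.38 in T4A cells. No test was made of these differences, since the WT and S7A libraries chose the genes.

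**Figure D4:**
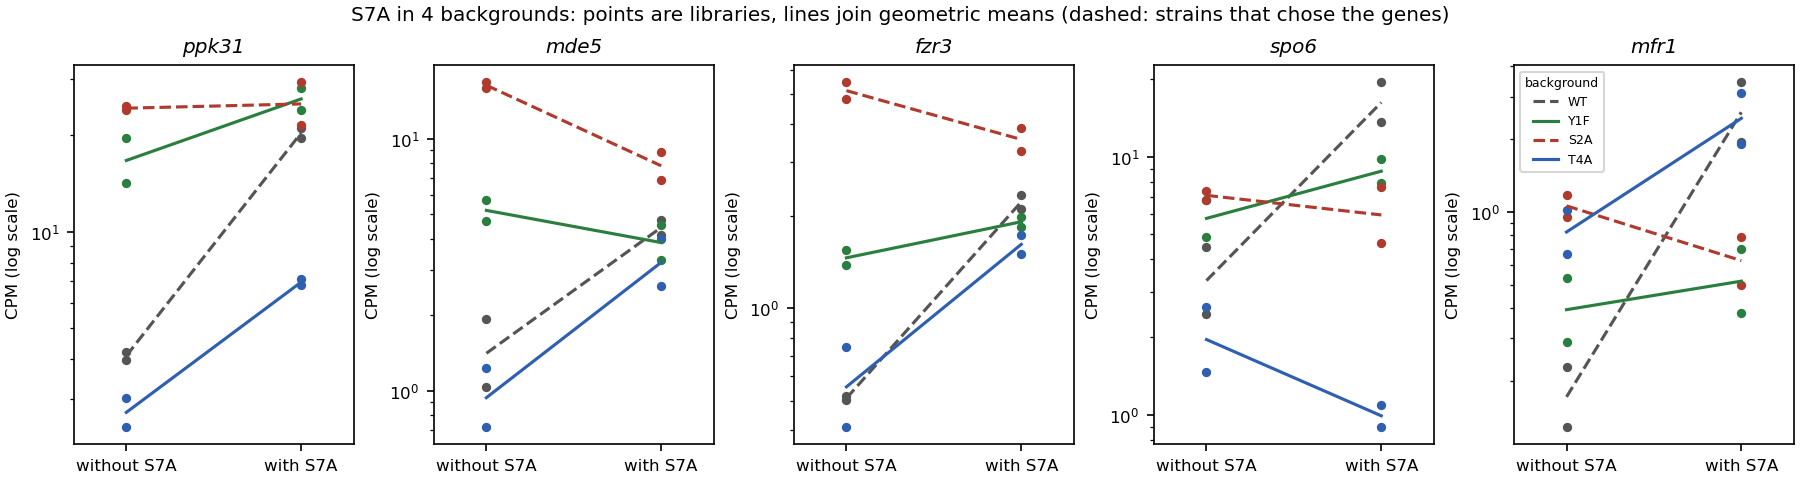
Level of each gene in CPM (vertical axis, log scale) without and with S7A in 4 backgrounds; points are libraries and lines join geometric means of 2 libraries, dashed for WT and S2A, whose libraries chose the genes. In the T4A background (blue) ppk31 went from 2.45 and 3.03 to 7.10 and 6.81 while spo6 went from 1.46 and 2.62 to 1.1 and 0.898.

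Between the Y1F and T4A single mutants, Y1F exceeded T4A for ppk31 by 2.63 ± 0.23 on the log2 scale (6.20-fold, adjusted p = 0.000249) and for mde5 by 2.39 ± 0.38 (5.24-fold, adjusted p = 0.00694), where 3.6% of tested features were called. spo6 (1.54 ± 0.39, adjusted p = 0.0565) and fzr3 (1.29 ± 0.34, adjusted p = 0.0621) missed the threshold, and passed it with the replicate block (0.00989 and 0.0283), where 15% of features did. mfr1 was the exception, at -1.04 ± 0.55 (adjusted p = 0.392), with both T4A libraries above both Y1F libraries.

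The WT libraries also entered the choice of genes and lie low for them, so values of Y1F and T4A against WT are a description. In Y1F the log2 changes were 2.05 ± 0.22 for ppk31, 1.82 ± 0.37 for mde5, 1.51 ± 0.35 for fzr3, 1.20 ± 0.67 for mfr1 and 0.76 ± 0.38 for spo6. Of all features 1.29% were called higher in Y1F, and nothing is read from the 5 genes against that share.

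In T4A none of the 5 was called against WT, where 0.0935% of features were called and 492 had an unadjusted p under 0.05. With DESeq2 66 features were called. mfr1 had the largest difference, 2.24 ± 0.62 (adjusted p = 0.332), with T4A at 30 and 13 reads and WT at 5 and 3. ppk31 (-0.59 ± 0.23), mde5 (-0.57 ± 0.39) and spo6 (-0.78 ± 0.40) had lower means than in WT, and fzr3 was at 0.22 ± 0.37. The authors' deposited table gives, for T4A-S7A against WT, a log2 fold change of 3.80 for mfr1 with an adjusted p of 0.000864 and of -1.81 for spo6 with an adjusted p of 0.51. Its adjusted p for S7A added to T4A or to Y1F was at least 0.396 for all 5, its lowest being that of ppk31 in T4A.

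Each of the 5 genes lies across from another, more abundant feature on the opposite strand. An opposite-strand feature of any abundance was listed for 59% of 4994 tested protein-coding features. mfr1 (chromosome II, 194678 to 195989, plus strand) lies wholly inside tfg2, a subunit gene of the general transcription factor TFIIF. fzr3 (chromosome III, 2149317 to 2150908, minus strand) lies wholly inside mug163. spo6 (chromosome II, 3103110 to 3104934, plus strand) lies wholly inside lam2. Such full enclosure was found for 6.77% of tested protein-coding features. mde5 (chromosome I, 2538102 to 2540081, plus strand) is covered by SPAC4A8.02c over 99.949% of its length, and ppk31 (chromosome II, 1212690 to 1216671, minus strand) by the noncoding RNA SPNCRNA.1421 over 88.2%. These coordinates are those of the deposited table, whose build is not named.

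The libraries kept the strand, so reads of gene and partner were counted apart, and the share of partner reads counted on the wrong strand was not tested. Reads of mfr1 came to 0.116 to 3.32% of those of tfg2 across libraries, fzr3 to 1.39 to 16.9% of mug163, mde5 to 0.969 to 24% of SPAC4A8.02c, ppk31 to 5.13 to 33.1% of SPNCRNA.1421, and spo6 to 0.923 to 19% of lam2. In S7A the partners' log2 changes against WT were -0.43 ± 0.19 for mug163, 0.16 ± 0.14 for SPNCRNA.1421, -0.08 ± 0.16 for tfg2, -0.06 ± 0.12 for SPAC4A8.02c and -0.04 ± 0.11 for lam2. In S2A the values were 0.34 ± 0.14 for SPNCRNA.1421, 0.33 ± 0.11 for lam2, 0.30 ± 0.19 for mug163, 0.09 ± 0.16 for tfg2 and -0.03 ± 0.12 for SPAC4A8.02c. None of these was called, but with the replicate block SPNCRNA.1421 (adjusted p = 0.0322) and lam2 (0.00949) in S2A were. In S2A-S7A SPNCRNA.1421 was called, at 0.59 ± 0.14 (adjusted p = 0.0138), and the call was lost in 3 of 4 fits that each left out a library, all but the one without WT replicate 2 (adjusted p up to 0.105). With the block lam2 (adjusted p = 0.00737) and tfg2 (0.00825) were also called there. Their log2 changes in the unblocked fit were 0.34 ± 0.11 and 0.32 ± 0.16. Between Y1F and T4A, where ppk31 differed by 2.63, SPNCRNA.1421 was at 0.50 ± 0.14 (adjusted p = 0.0748, with the block 0.00973).

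**Figure D5:**
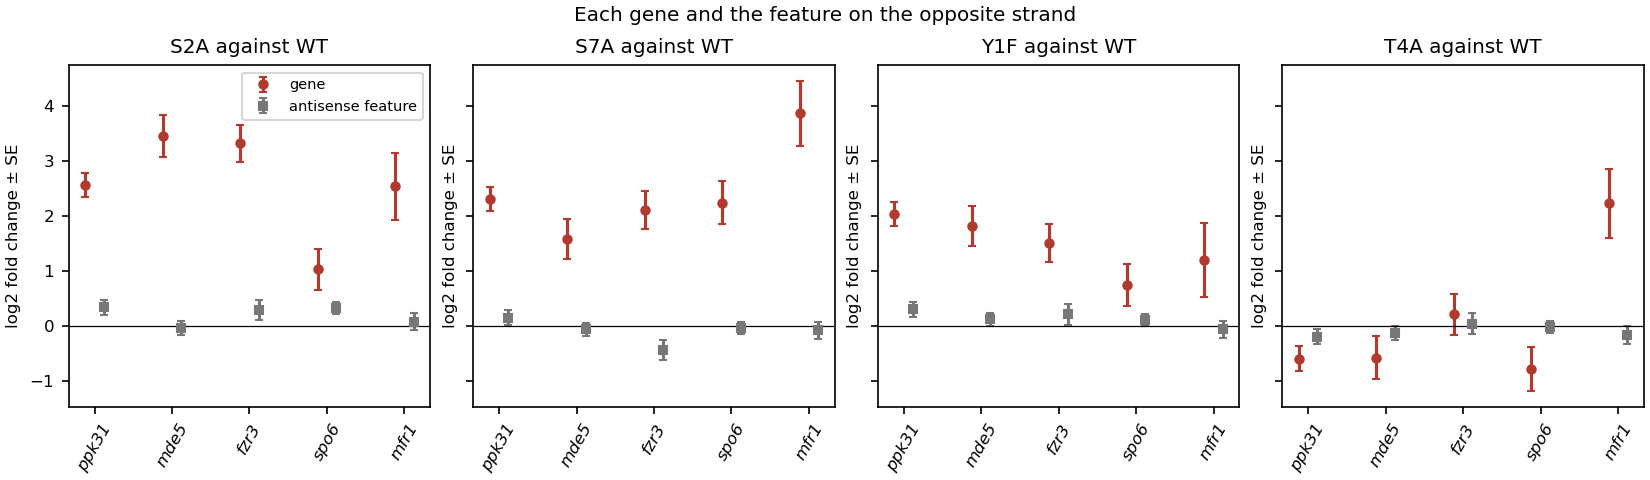
Log2 fold change against WT ± SE (vertical axis) of each gene (red circles) and of the feature on its opposite strand (grey squares) in the 4 single mutants, n = 2 libraries per strain. The grey squares lie between -0.43 and 0.34. The red circles span 1.03 to 3.46 in S2A and -0.78 to 2.24 in T4A. The choice of genes required their rise in S2A and S7A and made no such demand of the opposite-strand features.

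Relatives of the 5 genes were read beside them, some of which work in growing cells and others in meiosis. Of the other activators of the anaphase promoting complex, slp1 (mitosis), ste9 (arrest in G1) and fzr2, none was called in S2A, S7A, Y1F or the S7A steps, although slp1 in S2A (-0.76 ± 0.26, adjusted p = 0.081) passed with the replicate block (0.0207). In S2A-S7A slp1 was called lower (-1.01 ± 0.26, adjusted p = 0.0196), but not in the fits that left out WT replicate 1 or S2A-S7A replicate 2 (adjusted p up to 0.192). In S7A they were at 0.10 ± 0.25, -0.11 ± 0.33 and -0.31 ± 0.37. Of the other genes listed for Dbf4-dependent kinases and their subunits, hsk1 was at 0.03 ± 0.11 in S2A and -0.09 ± 0.11 in S7A. The values for dfp1 were -0.18 ± 0.11 and 0.06 ± 0.11, with no call for either gene. spo4, whose product Spo6 activates, had at most 12 reads in a library. It had 12 and 10 in S2A, 2 and 3 in S7A and 0 and 3 in WT, with no call in S2A or S7A. The other Rim15-type kinase genes, ppk18 and cek1, were at 0.19 ± 0.12 and -0.23 ± 0.18 in S2A and at 0.08 ± 0.12 and 0.07 ± 0.18 in S7A. Among the other genes listed with the alpha-amylase homologues meu7, itself a meiotic gene, rose in S2A by 2.10 ± 0.31 (adjusted p = 0.000828), while meu17 (0.31 ± 0.57, and 1.28 ± 0.54 in S7A), aah1 (-0.41 ± 0.17, adjusted p = 0.173, with the block 0.0469) and aah3 (-0.08 ± 0.14) were not called.

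A list of 27 other middle meiotic and sporulation genes was read in the same contrasts. In the mean S7A step over Y1F and T4A, 3 rose and none fell, with a median of 0.48 against 0.00169 over all features. They were the septin genes spn5 (1.49 ± 0.23, adjusted p = 0.0167) and spn6 (2.04 ± 0.41, adjusted p = 0.0451), and mug28 (1.07 ± 0.21, adjusted p = 0.0348), an RNA-binding protein gene of spore formation. Leaving out any 1 of the 8 libraries took away the calls of spn6 (adjusted p from 0.076 to 0.193) and mug28 (0.0552 to 0.145), and 6 of the 8 took away that of spn5 (up to 0.068), the exceptions being replicate 1 of Y1F-S7A and of T4A-S7A. In S2A 10 rose and 1, isp3, fell (median 0.85), and the isp3 call was lost with any 1 of 4 libraries left out (adjusted p from 0.133 to 0.205). In S7A, where 0.997% of features were called higher (4.11% with the block), 4 rose (median 0.65). The S2A by S7A interaction had a median of -0.79 in this list against -0.02 over all features, and 1 gene, spn5, was called (-2.67 ± 0.47, adjusted p = 0.0319), where 0.171% of features were called below 0 (1.67% with the block). That call was lost in 7 of 8 fits that each left out a library, all but the one without WT replicate 2 (adjusted p up to 0.143). With the replicate block 6 rose in the mean S7A step, 8 rose and 1 fell in S7A, and in the interaction 5 were called below 0 and 1 above.

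Of 21 genes of early meiotic recombination, none was called in the mean S7A step, 2 rose and 1 fell in S2A, and 2 rose in S7A (dmc1, the meiotic strand-exchange protein, at 1.78 ± 0.37, adjusted p = 0.0367, and rec25 at 1.17 ± 0.25, adjusted p = 0.0407). Both S7A calls were lost with any 1 of 4 libraries left out (adjusted p from 0.0821 to 0.229 for dmc1 and 0.182 to 0.253 for rec25). The 2 that rose in S2A stand beside the 7.17% of all features called higher there. With the replicate block 1 rose in the mean S7A step, where 5.97% of all features were called in either direction. With it 5 rose in S2A and 4 in S7A, where 15.4% and 4.11% of all features were called higher. Of 12 transcripts known to be eliminated by Mmi1, 0 were called in S2A and 1, mei4, in S7A, where the replicate block called 5 higher. In S2A-S7A, where 8.49% of features were called higher (18.4% with the block), 4 of the 12 rose, and 7 with the block. Of 10 genes of the elimination machinery, red1 alone rose in S2A (0.42 ± 0.10, adjusted p = 0.021) and none was called in S7A, with mmi1 at 0.21 ± 0.21. Among the 4 fits that each left out a library, red1 kept its call only in the one without S2A replicate 2 (adjusted p up to 0.155 in the rest). With the replicate block 1 also fell in S2A, and 1 rose and 1 fell in S7A.

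Of the switches upstream, mei4 rose in S7A from 7.86 and 6.58 CPM in WT to 27.7 and 21.9 (1.78 ± 0.21, adjusted p = 0.00306). In S2A, where mde5, fzr3 and ppk31 had changes of 2.57 or more, mei4 was at 9.76 and 9.70 CPM and was not called (0.43 ± 0.21, adjusted p = 0.229). In T4A-S7A it was at 9.04 and 10.7. The gene of the Mei2 regulator stood at 8.32 and 6.71 CPM in WT, 23.1 and 18.96 in S7A, 3.85 and 2.41 in T4A and 2.47 and 0.950 in T4A-S7A. In Y1F mei2 had 12.1 and 6.55 CPM, and in Y1F-S7A 14.6 and 12.2. In S2A it had 5.66 and 3.84, and in S2A-S7A 5.30 and 7.91. Like spo6, mei2 was high in S7A and low in T4A-S7A, whereas mfr1 was near its highest level in T4A-S7A. mei2 was not called in S7A (1.48 ± 0.42, adjusted p = 0.13) except with the replicate block (adjusted p = 0.00936). Any part of mei4 or mei2 in the levels of the genes described here was not tested. ste11 fell in S2A (-1.05 ± 0.28, adjusted p = 0.0274) and was at 0.17 ± 0.27 in S7A. The ste11 call was lost in 3 of 4 fits that each left out a library, all but the one without WT replicate 2, with log2 changes from -1.43 to -0.53 and adjusted p up to 0.266.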

How the data were processed

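The authors deposited 1 table of 7022 features for 16 libraries. The aligner, per the submitters' processing notes, was Bowtie 0.12.7. For genome build, annotation and counting tool, a statement is not given in the sources used here. Every test started from the deposited read counts. Per the file headers the table also holds log2 RPKM, and the authors' own DESeq log2 fold change and adjusted p-value for 10 pairs of strains. For at least 61.5% of features per library, the deposited RPKM implied a library total within 0.1% of the median total so implied. Features were matched to RefSeq by locus tag (6844) or synonym (23), and 155 had no match.

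Counts were fitted with edgeR 4.0.16 (on limma 3.58.1, R 4.3.3): filterByExpr by strain (6420 features left), TMM factors from 0.911 to 1.154, robust quasi-likelihood fits with 1 coefficient per strain, 8 residual degrees of freedom and a common biological coefficient of variation of 19.3%. Tests were two-sided with Benjamini-Hochberg adjustment over all tested features and called at an adjusted p under 0.05. The procedure was tested on simulated data. Replicates of a strain differed by more than counting error: chi-square divided by its degrees of freedom was 85.3 to 153.6. Depth was 18677921 to 31254978 reads per library.

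Same-numbered libraries deviated together in all 28 pairs of strains (correlations 0.245 to 0.667), so the numbers were taken to pair the libraries and a blocked fit was made beside the unblocked one. Other alternatives were RLE factors, no low-count filter, the compared strains alone, DESeq2 1.42.0 and leaving out single libraries. A strain left with 1 library is then assumed to vary like the others. Tests were made on counts without a pseudocount, and the log2 CPM profiles behind the correlations used a prior count of 2. The 5 genes and the 12 gene lists were chosen with earlier results of these data known, and the comparison of Y1F with T4A and of the S7A steps in them was added after counts were seen. Named were the 5 genes, every gene of lists of up to 7, up to 4 by smallest adjusted p of longer lists, the regulators mei4, mei2, ste11 and mmi1, and the 6 features most correlated with the mean profile at an average log2 CPM of at least 1. The text prints part of these, and names rec25, isp3, red1 and the opposite-strand features after their values were seen. Sequences come from the reference ASM294v3 at its own gene coordinates.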

Additional observations from a re-analysis of the deposited data

Results flagged for a closer look

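For 2 genes the S7A step went opposite ways in the Y1F and T4A backgrounds with no overlap between libraries. With 2 libraries per strain such separation can arise without a difference, and its share among all features was not counted. For mde5, both Y1F-S7A libraries (3.31 and 4.53 CPM) lay below both Y1F libraries (5.70 and 4.73), and both T4A-S7A libraries (2.60 and 4.01) lay above both T4A libraries (1.23 and 0.718). The difference of the 2 steps was -2.14 ± 0.51 on the log2 scale (edgeR, adjusted p = 0.622, with the replicate block 0.174, with DESeq2 0.028).

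For spo6 the pattern was the reverse: Y1F-S7A (7.88 and 9.81 CPM) lay above Y1F (4.88 and 6.82), and T4A-S7A (1.1 and 0.898) lay below T4A (1.46 and 2.62). The difference was 1.59 ± 0.56 (edgeR, adjusted p = 1, with the replicate block 0.431). Neither difference was called in edgeR, with or without the replicate block, while DESeq2 called that of mde5. The cause of these patterns was not tested.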

How the results depend on the processing

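Of 554 alternative values for the 5 genes, 497 kept their direction and side of the threshold, or moved by less than the spread between replicates. In the contrasts that chose the genes, where only the size of the change was compared and not calls, 21 moved further. In the others 22 lost a call, 10 gained one and 4 changed sign. The sign changes all came from leaving out a library: mfr1 in S7A added to Y1F (from -0.12 to 0.84, negative without Y1F replicate 1 or Y1F-S7A replicate 2), spo6 in the mean S7A step (from -0.39 to 0.026, positive without T4A replicate 2) and fzr3 in T4A against WT (from -0.31 to 0.55, negative without T4A replicate 1). None of these was called. Few reads limit mfr1 above all, with 8 in WT. Calls depended most on the estimate of the spread: the block and DESeq2 raised the counts, and the compared strains alone lowered them or left them as they were. The causes were not tested. In the contrasts outside the choice, the block changed no other call of the 5 genes than those given beside their values.

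Features called went, with the replicate block, from 1 to 87 for S7A added to Y1F, 12 to 161 for S7A added to T4A, 55 to 383 for their mean, 0 to 6 for their difference, 231 to 960 for Y1F against T4A, 190 to 807 for Y1F against WT, 6 to 105 for T4A, 763 to 1886 for S2A, 110 to 520 for S7A, 1061 to 2434 for S2A-S7A and 31 to 234 for the interaction. With DESeq2 they came to 64, 111, 196, 14, 542, 426 and 66 for the first 7, 297 for S7A and 164 for the interaction. With the compared strains alone they came to 0 for S7A added to Y1F, S7A added to T4A, Y1F against T4A and T4A against WT, 2 for the mean, 20 for Y1F against WT, 8 for S7A, 335 for S2A-S7A and 12 for the interaction. RLE factors or no filter left 0 for S7A added to Y1F.

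Of the 5 genes, the block called 2 in S7A added to T4A (1 without it), 2 in the mean step (1) and 4 in Y1F against T4A (2). Of all features it called 2.51%, 5.97% and 15% there, against 0.187%, 0.857% and 3.6% without it. DESeq2 called 3, 2 and 4 of the 5, and 1 in the difference (0 in edgeR), beside 111, 196, 542 and 14 of all features. The compared strains alone called 0 of the 5 in these contrasts and in Y1F against WT (3, a count that shares the WT libraries with the choice of genes), where mfr1 was not tested.

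With each library left out in turn, features called ran from 0 to 0 for S7A added to Y1F, 1 to 3 for S7A added to T4A, 8 to 31 for the mean, 0 to 1 for the difference, 37 to 110 for Y1F against T4A, 51 to 69 for Y1F against WT, 2 to 6 for T4A, 379 to 473 for S2A, 17 to 37 for S7A, 520 to 765 for S2A-S7A and 1 to 26 for the interaction. Of the 5 genes 0 were then called in S7A added to T4A, 0 to 1 in the mean step and 1 to 2 in Y1F against WT.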
